A study of Rattus norvegicus with 10 samples.

Results

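Triglyceride synthesis in white adipose tissue was examined through 10 genes, chosen by name as genes of the pathway. Pck1 and Gpd1 supply glycerol 3-phosphate, Gpam acylates it, and Agpat2 adds a fatty acid to the product. The others are the lipins Lpin1, Lpin2 and Lpin3, the final acyltransferase genes Dgat1 and Dgat2, and the monoacylglycerol acyltransferase gene Mogat1. All 10 genes were measured, by 15 of the 31042 probe sets tested (a probe set is the group of array probes that reports one transcript), each with a single gene symbol in the platform annotation. The tissue came from 10 male rats aged 13 weeks, with 1 array per animal. The 5 noodle rats ate a diet that was 30% instant noodle by weight, seasonings included, with 26% of its energy from fat, and the 5 control rats are described as eating that diet without the seasonings. Whether the control diet held the noodle, and how much fat it held, were not stated in the labels, so the comparison is of 2 diets. Feeding lasted 30 days (4 weeks in another label) and was matched in pairs at some 60 g daily for each kg of body weight, under a 12 h light and 12 h dark cycle. The labels give no strain, fat depot or hour of sampling, and their extraction text names brain, so the tissue was checked against markers.

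Adipocytes store energy as triglyceride, fatty acids joined to a glycerol backbone. The backbone enters as glycerol 3-phosphate, which fat cells make from glucose or, in glyceroneogenesis, from pyruvate and lactate, because they have little glycerol kinase. Glycerol 3-phosphate is acylated on the mitochondrial outer membrane or the endoplasmic reticulum to lysophosphatidate and then to phosphatidate, lipins remove the phosphate to give diacylglycerol, and a diacylglycerol acyltransferase adds the last fatty acid.

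No difference between the diets passed the test in any of these genes. With limma (Benjamini-Hochberg over all probe sets), 0 of the 15 probe sets reached an adjusted p of 0.05, where 0% of all tested did so, and their adjusted p-values lay between 0.993 and 1. At an unadjusted p under 0.05 there were also 0 of 15, against 4.77% of all probe sets tested and 8.13% of those that were not flat. The diets did not separate without overlap in any of the 15, against 0.718% of all probe sets and 0.959% of those that were not flat. The gene nearest to a difference was Lpin1, lower in noodle rats by 0.17 log2 units, and what the data show beyond that is how each gene varied from animal to animal.

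The deposited values are on a log scale taken as log2, 1 value per probe set and array, and most hardly vary. A probe set with an SD of 0.01 or less over the 10 arrays is called flat here. Of the 15 probe sets of the pathway 10 were not flat (66.7%), against 8.4% of all tested. Dim probe sets were most often flat, with 0.631% not flat below a level of 6, 49.5% between 10 and 11 and 39.7% at 12 and above. The gap around the limit was wide for the pathway: the nearest flat probe set was the second one of Lpin1, with an SD of 0.0025, and the nearest above it was the brighter one of Dgat2, with an SD of 0.0955. The labels do not say why so many values are flat, and a level on one probe set cannot be set against that on another.

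**Figure D1:**
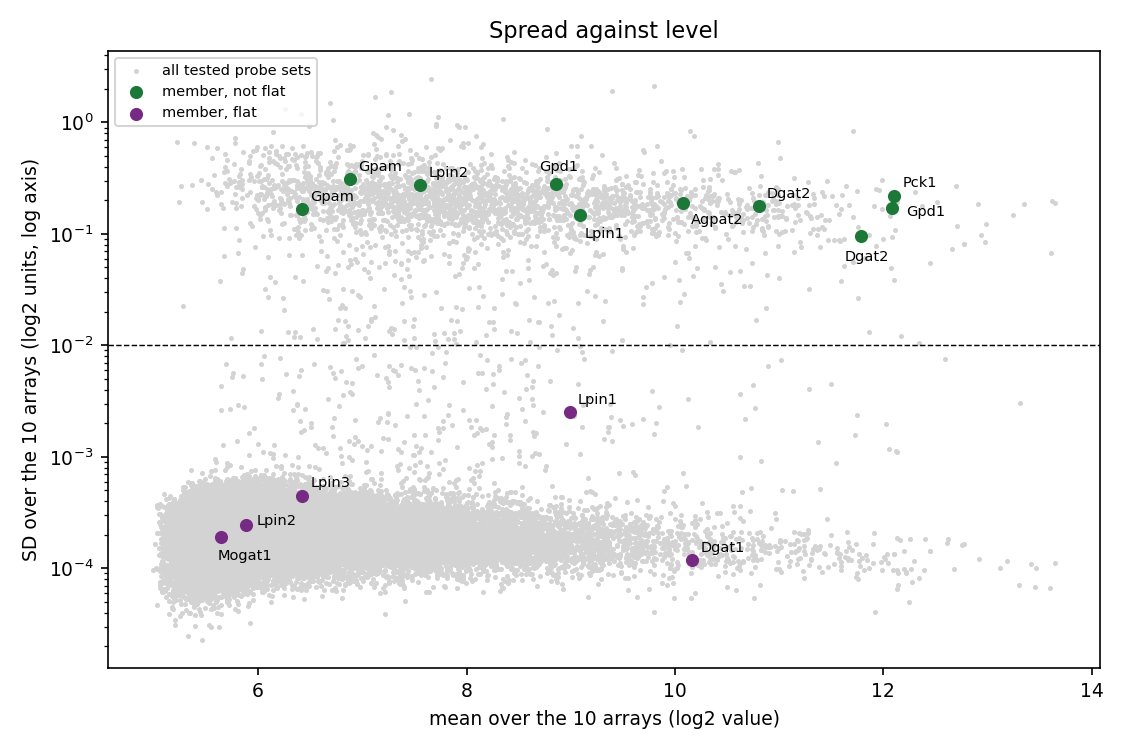
SD over the 10 arrays (log2 units, log axis) against the mean over the 10 arrays (log2 value) for all 31042 tested probe sets (grey) and the 15 of the pathway (green, not flat; purple, flat), with the limit of 0.01 as a dashed line. The 10 green points have SDs from 0.0955 to 0.311, and the 5 purple points lie at 0.0025 or below.

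Pck1 encodes cytosolic phosphoenolpyruvate carboxykinase, the controlling enzyme of glyceroneogenesis in fat, and its probe set was one of the brightest on the arrays (mean 12.11, above 99.8% of all). It stood at 12.29, 12.18, 12.13, 12.13 and 11.69 in noodle rats 1, 4, 7, 10 and 13, against 12.26, 12.22, 12.21, 12.25 and 11.71 in control rats 2, 5, 8, 11 and 14. In each group 4 animals lay close together and 1 stood clearly below them, noodle rat 13 and control rat 14. The means were 12.08 ± 0.23 in noodle rats and 12.13 ± 0.24 in control rats (SD, n = 5 each), a difference of -0.05 ± 0.14 (SE; 95% interval -0.37 to 0.27). Without noodle rat 13 the difference was 0.048 and without control rat 14 it was -0.155.

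The start of Pck1 lies on rat chromosome 3, and its promoter is shown because this gene is the textbook case of a cyclic AMP-regulated promoter and because 1 pathway promoter of 7 held the core of the cyclic AMP response element. The 300 bases printed run from 250 before to 50 after the RefSeq start (assembly GRCr8, chr3:182348322-182348621, plus strand). Capitals mark the only matches among 7 motifs searched on both strands, AGGTCA (the core bound by many nuclear receptors) and ACGTCA (the core of the cyclic AMP response element), which do not overlap.
Pck1: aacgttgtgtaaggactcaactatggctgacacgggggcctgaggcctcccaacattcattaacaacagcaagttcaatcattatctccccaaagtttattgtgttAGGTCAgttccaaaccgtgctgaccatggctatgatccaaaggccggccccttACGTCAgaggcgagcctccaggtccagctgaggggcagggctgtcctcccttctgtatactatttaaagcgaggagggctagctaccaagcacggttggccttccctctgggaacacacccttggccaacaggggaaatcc
ACGTCA or its reverse complement was present in 7.94% of the 33469 promoters of that table and AGGTCA in 16.2%. The match begins 91 bases before the start for ACGTCA and 144 before it for AGGTCA. These are matches of letters, not measured binding.

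Gpd1 encodes the cytosolic glycerol 3-phosphate dehydrogenase that turns dihydroxyacetone phosphate into glycerol 3-phosphate. Its brighter probe set stood at 12.09, 11.92, 12.22, 12.09 and 12.20 in noodle rats 1, 4, 7, 10 and 13, against 12.36, 12.12, 12.06, 12.00 and 11.74 in control rats 2, 5, 8, 11 and 14. All 5 noodle rats lay inside the range of the control rats. The difference was 0.05 ± 0.11 (95% interval -0.20 to 0.30). The second probe set, dimmer at a mean of 8.86, differed by 0.21 ± 0.17 (95% interval -0.17 to 0.59), with noodle rats at 9.13, 8.53, 9.11, 8.77 and 9.27 and control rats at 9.04, 8.94, 8.62, 8.44 and 8.70. On it 3 of 5 noodle rats were above every control rat and 2 were not, and the unadjusted limma p was 0.243 (adjusted p = 0.993). Over the 10 animals the 2 probe sets followed each other with r = 0.654 (rho = 0.77, permutation p = 0.0363 and 0.0122). They ranked some animals differently, as control rat 2 was highest on the brighter one and noodle rat 13 on the dimmer one.

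Gpam encodes the mitochondrial acyltransferase that adds the first fatty acid. Its probe set with the higher mean stood at 7.19, 6.47, 6.81, 6.93 and 7.24 in noodle rats 1, 4, 7, 10 and 13, against 6.76, 7.28, 6.93, 6.81 and 6.35 in control rats 2, 5, 8, 11 and 14. Its SD over the 10 arrays, 0.311, was the largest of the pathway's probe sets, and its range, between control rat 14 and control rat 5, was 1.91-fold, against 2.01-fold for the brighter Lpin2 probe set. The groups overlapped over nearly the whole range, and the difference was 0.10 ± 0.20 (95% interval -0.35 to 0.56). The other Gpam probe set differed by 0.06 ± 0.11 and followed the first with r = 0.91 (rho = 0.855, permutation p = 0.0004 and 0.00285).

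Agpat2 encodes the endoplasmic reticulum acyltransferase that adds the second fatty acid, and its loss in humans causes congenital generalized lipodystrophy. Its single probe set stood at 10.12, 9.87, 9.92, 10.17 and 10.30 in noodle rats 1, 4, 7, 10 and 13, against 9.80, 10.41, 9.99, 10.13 and 10.02 in control rats 2, 5, 8, 11 and 14. The means coincided, at 10.07 ± 0.18 in noodle rats and 10.07 ± 0.22 in control rats (SD, n = 5 each), with a difference of 0.0026 ± 0.12 and a 95% interval of -0.28 to 0.28. The lowest and the highest animal were both control rats, 2 and 5.

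**Figure D2:**
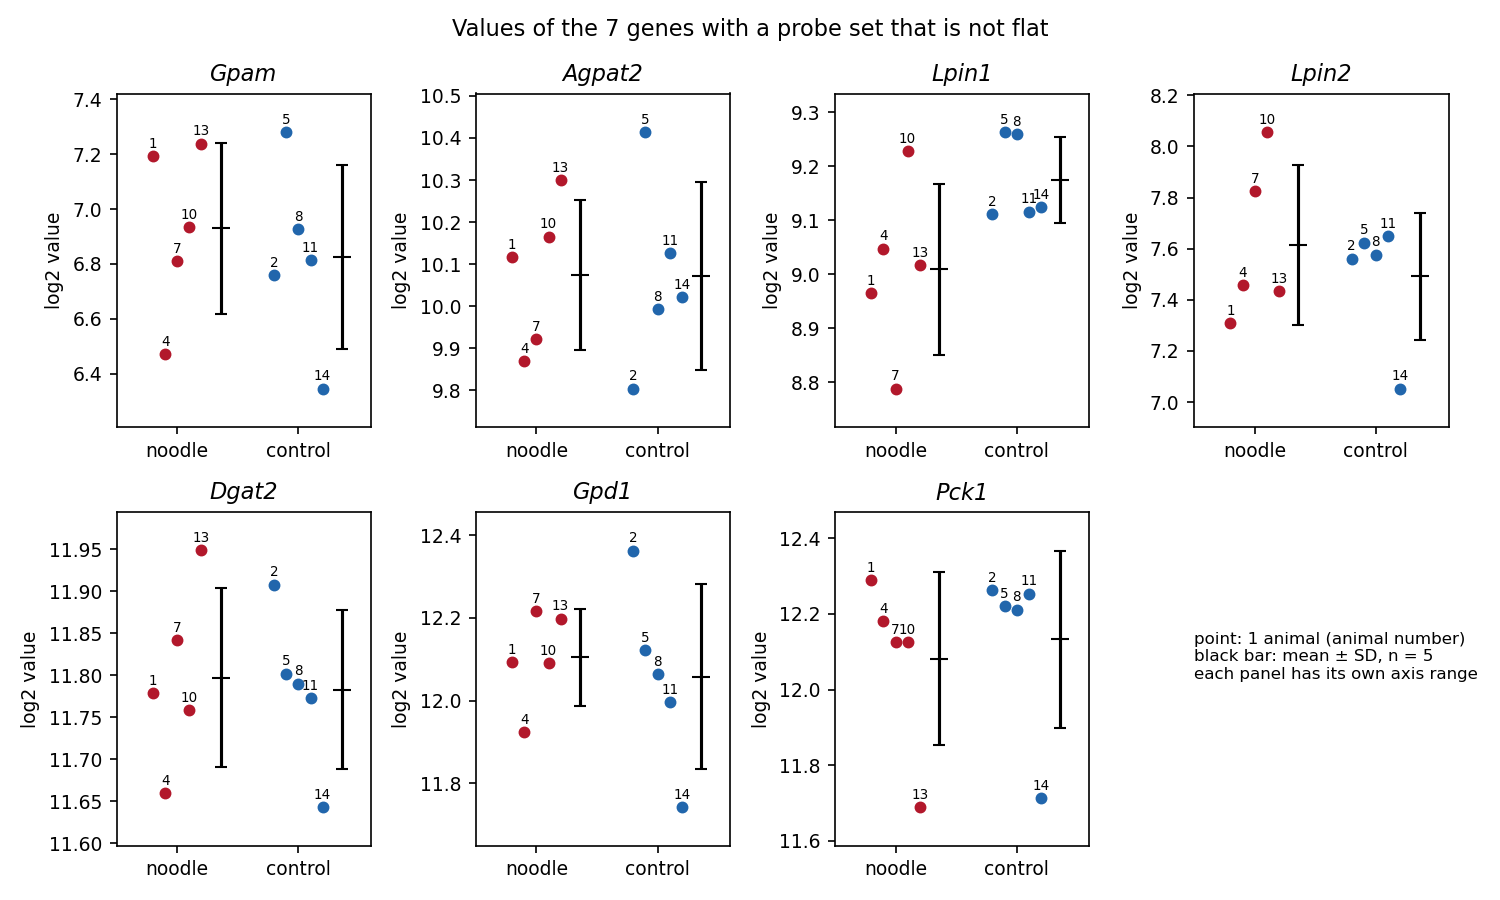
Log2 value in each animal for the 7 genes with a probe set that was not flat, on the one with the higher mean, noodle rats in red and control rats in blue, with the animal number above each point and the mean ± SD of 5 animals as black bars. The groups overlap in every panel, 4 of 5 noodle rats lie below the lowest control rat in the Lpin1 panel, and control rat 14 is lowest in the panels of Gpam, Lpin2, Dgat2 and Gpd1.

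The lipins are phosphatidate phosphatases, and Lpin1 is the family member on which fat tissue depends in mice, where its loss causes lipodystrophy. Lpin1 stood at 8.97, 9.05, 8.79, 9.23 and 9.02 in noodle rats 1, 4, 7, 10 and 13, against 9.11, 9.26, 9.26, 9.12 and 9.12 in control rats 2, 5, 8, 11 and 14. Noodle rats 1, 4, 7 and 13 lay below every control rat, and noodle rat 10 lay near the top of the control range. The means were 9.01 ± 0.16 in noodle rats and 9.18 ± 0.08 in control rats (SD, n = 5 each), a difference of -0.17 ± 0.08 or 0.891-fold. It did not pass, with an unadjusted limma p of 0.0599, an adjusted p of 0.993, a two-sided exact permutation p of 0.0794 (the smallest possible is 0.0079) and a 95% interval of -0.34 to 0.01. Leaving out single animals moved the difference between -0.221 (without noodle rat 10) and -0.111 (without noodle rat 7), with adjusted limma p-values of 0.822 and above.

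Lpin1 also followed a measure of the RNA itself. The array's control probe sets for Actb and Gapdh read the 3-prime and 5-prime ends of those transcripts, and a larger 3-prime minus 5-prime difference is a sign of more degraded or less completely copied RNA. That difference was 0.837 ± 0.069 log2 units in noodle rats and 0.95 ± 0.084 in control rats (SD, n = 5 each, two-sided exact permutation p = 0.0476). Over the 10 animals Lpin1 was higher where it was larger, with r = 0.741 and rho = 0.733 (permutation p = 0.013 and 0.0209, adjusted p = 0.091 for r over the 7 genes), r = 0.742 without the 2 arrays farthest from the median of the 3-prime to 5-prime difference, and r = 0.585 after each diet's mean was subtracted. With the 3-prime to 5-prime difference as a covariate in limma, Lpin1 differed between the diets by -0.059 ± 0.085 (adjusted p = 0.912). As the 3-prime to 5-prime difference itself differed between the diets, that fit cannot tell diet and RNA quality apart. The part of RNA quality in the Lpin1 values was not tested beyond it. Pck1 had the next highest correlation with the same measure, r = 0.622 (rho = 0.588, permutation p = 0.0619 and 0.0798, adjusted p = 0.217 for r, and r = 0.454 without the 2 farthest arrays), and with the covariate its difference turned to 0.19 ± 0.14 (adjusted p = 0.808). The other 5 genes had r between -0.092 and 0.344.

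**Figure D3:**
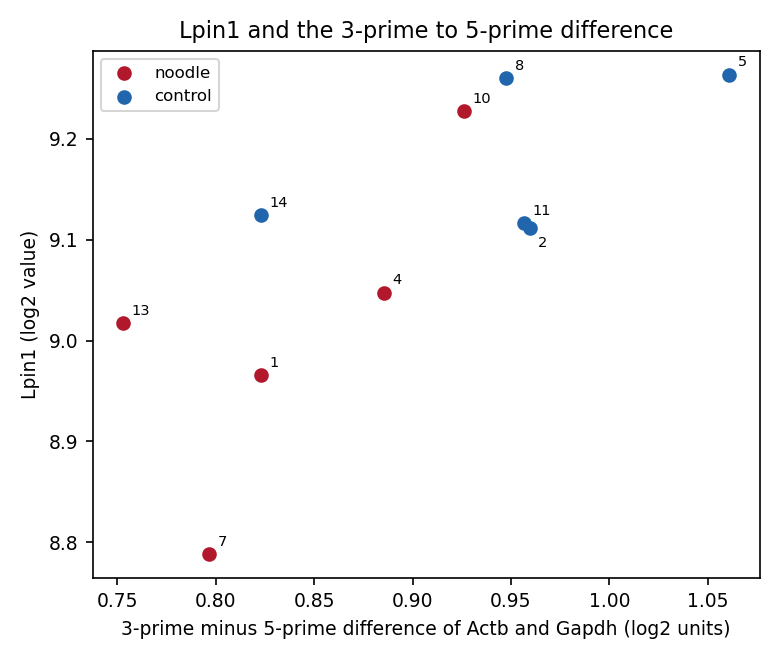
Lpin1 (log2 value) against the 3-prime minus 5-prime difference averaged over Actb and Gapdh (log2 units) in the 10 animals, noodle rats in red and control rats in blue with their animal numbers. Lpin1 is higher where the difference is larger (r = 0.741), and 4 of the 5 control rats lie to the right of all noodle rats.

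Lpin2 is the lipin best known from liver and macrophages. Its brighter probe set stood at 7.31, 7.46, 7.83, 8.06 and 7.43 in noodle rats 1, 4, 7, 10 and 13, against 7.56, 7.62, 7.58, 7.65 and 7.05 in control rats 2, 5, 8, 11 and 14. Noodle rats 7 and 10 lay above every control rat, the other 3 below the 4 tightly grouped control rats, and control rat 14 below all animals. The difference was 0.12 ± 0.17 (95% interval -0.27 to 0.52, adjusted p = 0.993). It was 0.0135 without noodle rat 10, 0.0136 without control rat 14 and 0.39 ± 0.18 (adjusted p = 0.75) with the 3-prime to 5-prime covariate. Lpin3, the third lipin, had a single flat probe set at 6.42 in all 10 animals (SD 0.00045), so no size of a difference can be read for it.

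No correlation between Lpin1 and Lpin2 passed the test, and 10 animals cannot show that they vary independently. Their correlation over the 10 animals was r = 0.0895 (rho = 0.236, permutation p = 0.804 and 0.511), and r = 0.536 without the 2 arrays farthest from the median of Lpin1. Within the diets r was 0.283 in noodle rats and 0.351 in control rats. Noodle rat 7 shows the contrast, with the lowest Lpin1 of all animals and the second highest Lpin2, while noodle rat 10 was high in both. Each of these lipins also had a flat probe set. In the deposited values that of Lpin1 (mean 8.99, SD 0.0025) followed its variable partner at a spread 58 times smaller. Over the animals r was 0.935 (rho = 0.855, permutation p = 0.00032 and 0.00307). This correlation was 0.478 after quantile normalization and 0.601 after centring the arrays, so the agreement depended on the processing. The flat probe set of Lpin2 (mean 5.89, SD 0.00024) did not follow its partner (r = -0.221, rho = -0.236, permutation p = 0.538 and 0.515).

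The promoters of these paralogues are shown because the 2 genes share a function while their start regions differ in composition, Lpin1 with 49% G and C and Lpin2 with 80%, against a median of 51.7% over all promoters in the table. They are the 300 bases around the RefSeq starts in GRCr8, chr6:45108893-45109192 on the minus strand for Lpin1 and chr9:118530105-118530404 on the plus strand for Lpin2, written in the direction of transcription. Capitals in Lpin1 mark TGTTCT, the reverse complement of the steroid receptor core AGAACA, 187 bases before the start, and CCAAT, 55 bases before it.
Lpin1: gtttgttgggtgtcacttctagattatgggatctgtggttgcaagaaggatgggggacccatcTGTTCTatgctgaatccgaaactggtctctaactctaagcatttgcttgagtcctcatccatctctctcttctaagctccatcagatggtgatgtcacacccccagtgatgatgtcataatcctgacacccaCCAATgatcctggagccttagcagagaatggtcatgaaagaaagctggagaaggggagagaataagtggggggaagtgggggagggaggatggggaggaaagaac
Lpin2: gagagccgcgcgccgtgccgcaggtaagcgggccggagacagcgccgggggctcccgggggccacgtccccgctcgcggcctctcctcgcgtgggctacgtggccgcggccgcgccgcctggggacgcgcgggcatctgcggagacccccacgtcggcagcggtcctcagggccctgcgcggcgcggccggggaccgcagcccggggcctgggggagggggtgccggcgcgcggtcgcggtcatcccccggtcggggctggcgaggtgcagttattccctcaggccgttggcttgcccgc
No capitals appear in Lpin2, since none of the 7 motifs is in its window. CCAAT was in 37.5% of all promoters of the table and AGAACA in 20.7%, so either match is common. The other motifs searched, on both strands, were the TATA box TATAAA, in 14.2% of all promoters, the E-box with the letters CACGTG, in 6.42%, and the GC box with the letters GGGCGG, in 33.1%.

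Dgat2 and Dgat1 encode unrelated enzymes for the last step. Dgat2 was bright on both of its probe sets. The brighter one stood at 11.78, 11.66, 11.84, 11.76 and 11.95 in noodle rats 1, 4, 7, 10 and 13, against 11.91, 11.80, 11.79, 11.77 and 11.64 in control rats 2, 5, 8, 11 and 14. This was the smallest SD and range among the pathway's probe sets that were not flat, a 1.24-fold range over all animals, and the difference between the diets was 0.014 ± 0.062 with a 95% interval of -0.13 to 0.16. The second probe set differed by 0.02 ± 0.12, with noodle rats at 10.91, 10.45, 10.93, 10.70 and 11.08 and control rats at 10.91, 10.86, 10.82, 10.71 and 10.67. On it the noodle rats held both the lowest and the 3 highest values, the third of them equal to control rat 2 at 2 decimals, with an SD of 0.245 in noodle rats and 0.102 in control rats. The 2 probe sets followed each other with r = 0.879 (rho = 0.891, permutation p = 0.00044 and 0.00117).

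Dgat1 had 1 probe set, flat at 10.17 in all 10 animals (SD 0.00012) although it was brighter than 98.1% of all probe sets. Mogat1, the monoacylglycerol acyltransferase gene, was flat at 5.65 (SD 0.00019), above only 23.1% of probe sets. For Dgat1, Lpin3 and Mogat1 the table therefore gives a level and no usable spread, and their adjusted p-values of 0.993 to 0.998 say nothing about the size of a difference.

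**Figure D4:**
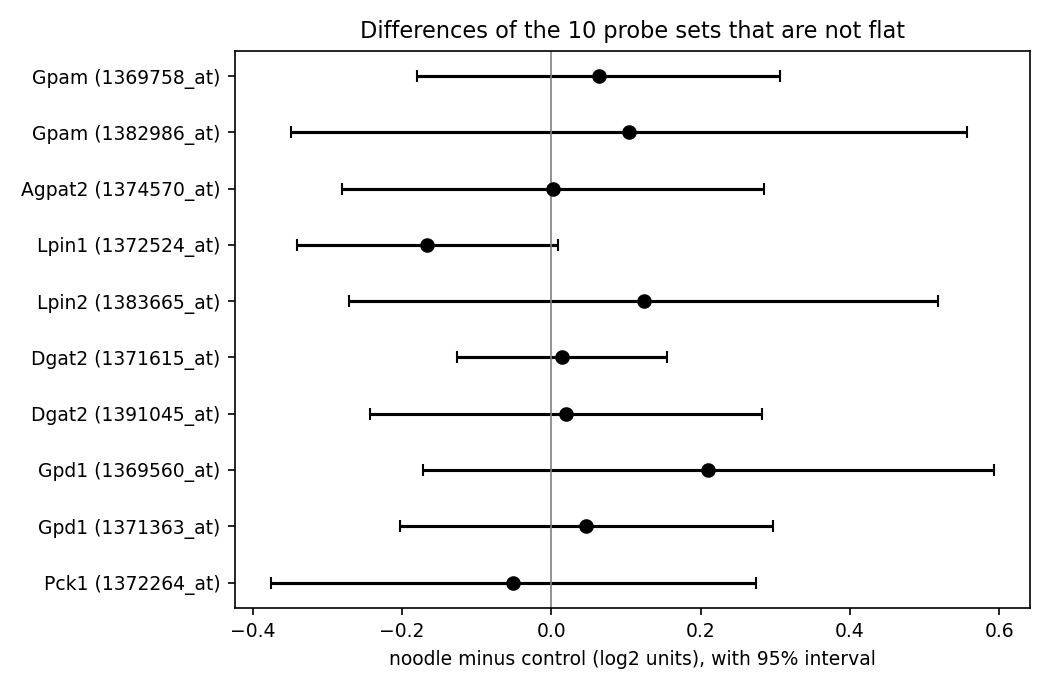
Noodle minus control difference (log2 units) with its 95% interval from limma for the 10 pathway probe sets that were not flat. All 10 intervals include 0, that of Lpin1 lies almost wholly below it, and the narrowest, for the brighter Dgat2 probe set, runs from -0.13 to 0.16.

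Read together as differences, 8 of the 10 probe sets that were not flat were higher in noodle rats and 2 lower (Lpin1 and Pck1), with a median of 0.034, where 44.6% of all probe sets that were not flat were higher (51.3% of all tested), and 55.4% lower (48.7% of all tested), with a median of -0.012 for those not flat. These 8 belong to 5 genes, since Gpam, Dgat2 and Gpd1 have 2 probe sets each, and none of the 10 passed. The intervals run from -0.37 at the lowest (Pck1) to 0.59 at the highest (the dimmer Gpd1 probe set).

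Across animals, 1 pair of the 7 variable genes moved together. Of 21 pairs examined on the probe set with the higher mean, only Dgat2 and Gpd1 passed after Benjamini-Hochberg adjustment, with r = 0.894 and rho = 0.903 (permutation p = 0.00068 and 0.00065, adjusted p = 0.0143 and 0.0136). Without noodle rat 13 and control rat 14, the 2 arrays farthest from the median of Dgat2, r was 0.94, and after each diet's mean was subtracted it was 0.895. Control rat 14 and noodle rat 4 were lowest in both genes, and control rat 2, noodle rat 7 and noodle rat 13 highest. The other combinations of the Dgat2 and Gpd1 probe sets gave r from 0.706 to 0.844. Among all 3396921 pairs of probe sets that were not flat, 0.261% reached an r as high. Without noodle rat 4 the adjusted p was 0.0682 (r = 0.89), and without control rat 14 it was 0.0692 (r = 0.858).

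**Figure D5:**
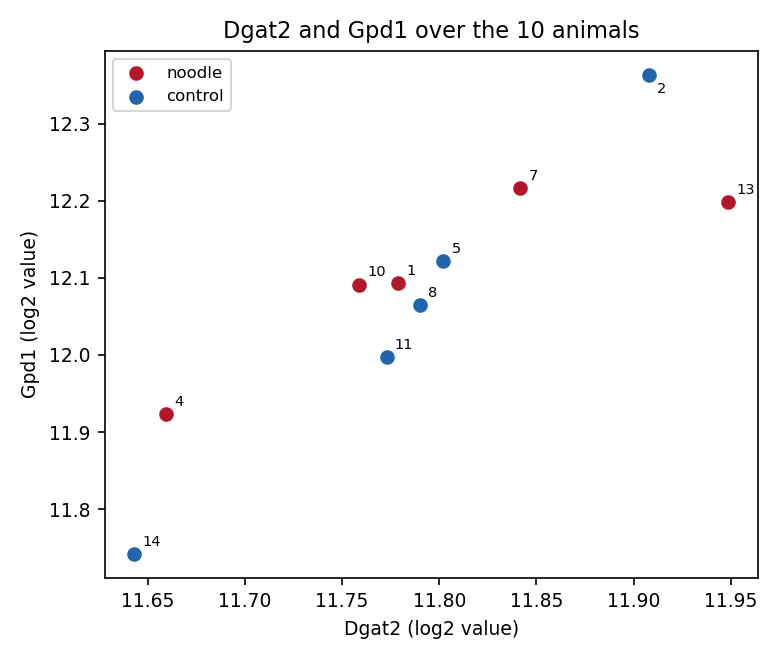
Gpd1 against Dgat2 (log2 values of the brighter probe set of each) in the 10 animals, noodle rats in red and control rats in blue with their animal numbers. Gpd1 is higher where Dgat2 is higher (r = 0.894 over all animals, 0.899 in noodle rats and 0.995 in control rats). Control rat 14 and noodle rat 4 lie at the lower end. On this probe set Gpd1 spreads more in control rats (SD 0.224) than in noodle rats (SD 0.117), at Dgat2 SDs of 0.094 and 0.107. The dimmer Gpd1 probe set, not shown, goes the other way, with SDs of 0.241 in control rats and 0.303 in noodle rats. Its r with the same Dgat2 probe set was 0.529 in control rats and 0.901 in noodle rats. A difference in slope between the diets was not tested.

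The other pairs did not pass. Gpam came next, with r = 0.719 to Agpat2 (rho = 0.794, permutation p = 0.0195 and 0.00863, adjusted p = 0.205 for r) and r = 0.644 to Dgat2 (rho = 0.467, permutation p = 0.0438 and 0.18, adjusted p = 0.306). The correlation of Gpam with Gpd1, r = 0.566 (rho = 0.394, permutation p = 0.0856 and 0.265), was 0.287 without control rats 14 and 5. The median r of the 21 pairs was 0.186, against 0.041 over all pairs that were not flat.

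On the probe set with the higher mean of each gene, control rat 14 was lowest of all 10 animals in 4 of the 7 genes (Gpam, Lpin2, Dgat2 and Gpd1), and control rat 5 was highest in 3 (Gpam, Agpat2 and Lpin1). On the second variable probe sets the lowest animal was another, noodle rat 4 for Gpam and Dgat2 and control rat 11 for Gpd1, and the highest for Gpam was noodle rat 1. Control rat 14 and noodle rat 4 also had the highest mean level of 7 fibroblast and progenitor markers, at 10.42 and 10.43, where the other 8 animals lay between 9.84 and 10.19. In bulk tissue, fewer cells of a type and less RNA per cell cannot be told apart. Over the 10 animals Gpam was lower where these markers were higher, with r = -0.734 (rho = -0.697, permutation p = 0.0174 and 0.0308), and -0.176 without these 2 animals. Lpin2 had r = -0.705 with them (rho = -0.673, permutation p = 0.0211 and 0.0396), and -0.562 without the 2 animals. Dgat2 had r = -0.656 (rho = -0.382, permutation p = 0.0381 and 0.28) and Gpd1 r = -0.624 (rho = -0.358, permutation p = 0.0519 and 0.316), against 0.0026 and 0.101 without these animals, which are also the lower end of the relation between both genes. Gpd1 had r = -0.799 with 6 mesothelial markers (rho = -0.758, permutation p = 0.00579 and 0.0151), and -0.478 without control rats 14 and 2. Of 35 correlations of the 7 genes with 5 marker lists, 0 passed after adjustment (lowest adjusted p = 0.071), and 5 had an unadjusted permutation p under 0.05.

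The labelled tissue was set against marker genes, whose levels on different probe sets share no common scale. The median level was 12.2 over 11 adipocyte markers, and their mean lay between 11.92 and 12.01 in noodle rats and between 11.94 and 12.00 in control rats. Only 5 of these 11 markers were not flat, among them Pparg (SD 0.333). What range the mean had came from these few genes, and the flat markers in it kept that range narrow. This mean moved opposite to Pck1, with r = -0.842 (rho = -0.697, permutation p = 0.00203 and 0.031, adjusted p = 0.071). It was r = -0.517 without noodle rat 13 and control rat 14. The part of single markers in this correlation was not tested. The 6 measured brain markers had a median of 5.76, below every array median (6.17 to 6.18), with only Mbp above 8. Mean levels of 11 macrophage markers ran from 8.30 to 8.76 in noodle rats and from 8.16 to 8.71 in control rats, those of 6 mesothelial markers from 6.21 to 6.97 and from 6.18 to 7.58, and those of 6 endothelial markers from 8.15 to 8.41 and from 8.18 to 8.39. Brown fat markers, 7 genes, ran from 6.48 to 6.77 in noodle rats and from 6.44 to 6.70 in control rats. In the 3 lists of red blood cell, hepatocyte and skeletal muscle markers the ranges were 8.40 to 8.72, 6.42 to 6.56 and 6.51 to 6.59 in noodle rats, against 8.58 to 8.99, 6.37 to 6.85 and 6.53 to 6.60 in control rats, and 5 lymphocyte markers were flat at 5.92. By direction, all 6 mesothelial markers were lower in noodle rats (median difference -0.28), as were the 3 red blood cell markers that were not flat (-0.21). Of 11 macrophage markers, 10 were higher and 1 lower (0.16). Among the endothelial markers that were not flat, 2 were higher and 2 lower. Of all probe sets that were not flat, 44.6% were higher and 55.4% lower. No marker passed the threshold between the diets, and the part of cell composition in the members' values was not tested beyond these correlations.

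Other genes of the pathway and its regulators, from 2 lists, likewise gave no call. Of 37 measured genes of glycerolipid synthesis and its supply, 0 passed, and 10 were not flat, 5 of them higher and 5 lower. An unadjusted limma p under 0.05 was given by 2 of the 37, against 4.77% of all probe sets tested. These were Pck2 and Got2, named after their values were seen, and both were flat. Pnpla3, a lipase relative induced by feeding, had the widest spread, at 8.95, 7.81, 8.49, 7.61 and 9.12 in noodle rats 1, 4, 7, 10 and 13, against 8.35, 8.30, 7.16, 8.38 and 7.44 in control rats 2, 5, 8, 11 and 14, a difference of 0.47 ± 0.38. The glycerol kinase gene Gk differed by -0.073 ± 0.086, the malate dehydrogenase genes Mdh1 and Mdh2 by 0.034 ± 0.094 and 0.074 ± 0.079, Cpt1a, which sends fatty acids into mitochondria instead of into triglyceride, by -0.084 ± 0.057, and the lysocardiolipin acyltransferase gene Lclat1 by -0.0052 ± 0.0071. The adjusted p-values of these 6 lay between 0.993 and 0.998.

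Of 15 regulators 0 passed and 5 were not flat. Mlxipl, which encodes the glucose-responsive factor ChREBP, differed by 0.16 ± 0.14, with an SD of 0.315 in noodle rats and 0.0906 in control rats. Pparg, the adipocyte master regulator whose protein acts on Pck1, stood at 8.98, 9.40, 9.66, 9.98 and 10.11 in noodle rats 1, 4, 7, 10 and 13, against 9.40, 9.79, 9.77, 9.81 and 9.86 in control rats 2, 5, 8, 11 and 14. The noodle rats lay on both sides of the controls, with a difference of -0.10 ± 0.21. Cebpb, Cebpa and Srebf1, transcription factors of adipocyte differentiation and lipid synthesis, differed by 0.049 ± 0.11, 0.037 ± 0.14 and -0.0023 ± 0.13.

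The genes whose pattern over the animals was most like each of the 7 were looked up among 2070 probe sets that were not flat, by Pearson's r over the 10 arrays after subtracting each diet's mean. These r values are the highest of many and are given as a description. Gpam was most like Alad (r = 0.974), an enzyme of heme synthesis, the mitochondrial chaperonin gene Hspe1 (0.968) and the respiratory complex I gene Ndufb3 (0.955). Agpat2 was most like the amino acid transporter gene Slc36a2 (0.975), followed by Pdk2 (0.896) and Pdha1 (0.879), a kinase of pyruvate dehydrogenase and a subunit of that enzyme. Gpd1 was most like Dnaaf9 (0.916), Agpat3, another acyltransferase of the pathway (0.909), and the iron transporter gene Slc11a2 (0.895). Dgat2 was most like Gadd45a (0.915), Timm10 (0.908) and Aifm2 (0.868).

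For the lipins the likeness was lower. Lpin1 was most like the glucocorticoid-inducible gene Fkbp5 (r = 0.864), Mocs1 (0.839) and Etfb (0.82). Without subtraction of the diet means, its r with Fkbp5 was 0.657. Lpin2 was most like the nuclear receptor gene Esrrg (0.884), Asrgl1 (0.835) and the lipid droplet gene Plin4 (0.827). Pck1 was most like Abi1 (0.919), the lipid droplet gene Plin2 (0.894) and Adamts4 (0.883).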

How the data were processed

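The authors deposited 1 value for each probe set on 10 rat expression arrays, 1 per animal, hybridized with biotin-labelled cRNA from 100 ng of total RNA, per the labels' protocols. The deposited values were taken as log2 from their range (4.73 to 13.9), and the log base, background correction, summarization and normalization were not given in the sources used here. Of 31099 probe sets, 57 controls were left out; 20826 of the other 31042 had 1 gene symbol. Groups came from the sample titles. Diets were compared with limma 3.58.1 in R 4.3.3 (lmFit, eBayes, two-sided, noodle minus control) over all probe sets, with Benjamini-Hochberg adjustment at 0.05, and by exact permutation over 252 assignments. Correlation p-values came from 100000 permutations (numpy 2.4.6). For a gene with 2 probe sets, the one with the higher mean was used in correlations. All pathway probe sets are reported, and from the lists of other pathway genes and of regulators up to 6 each that were not flat, by smallest p. Members and lists were chosen with earlier results of these data known. RefSeq promoters (GRCr8) matched 7 of 10 genes, not Dgat1, Dgat2 or Gpd1. The limma script was tested on simulated data. No batch is labelled. The alternatives tried are given at the end. The number of arrays limits the precision, and p-values set a difference or a correlation against the spread between these animals.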

Additional observations from a re-analysis of the deposited data

Results flagged for a closer look

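Among 46 groups of 5 animals examined (the 10 pathway probe sets that were not flat, the 11 further genes named and 2 array measures, in each diet), 4 held a single animal that stood far away from the rest. Chance alone would mark about 1 in 20 groups, or 2.3. Pck1 stood out in both diets, in noodle rat 13 at 11.69 (other noodle rats 12.13 to 12.29) and in control rat 14 at 11.71 (other control rats 12.21 to 12.26). Lpin2 stood out in control rat 14 at 7.05, where the other control rats lay between 7.56 and 7.65. Pparg stood out in control rat 2 at 9.40, below the other control rats at 9.77 to 9.86, although 1 noodle rat was lower still.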

How the results depend on the processing

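No paired analysis was possible because the diets share no animal numbers and the rats matched in feeding are not named. The number of probe sets past the threshold was 0 under all alternatives but 1, without control rat 14, where it was 1, and 0 pathway probe sets passed under any of the 21. Of 438 values of the 21 named differences, 393 kept their direction and 45 turned. Quantile normalization gave -0.0023 for Agpat2 and 0.00023 for Srebf1. Array weights gave -0.010 and -0.011 for the brighter and dimmer Dgat2 probe sets, -0.0068 for the brighter one of Gpd1, 0.081 for Pparg and 0.032 for Srebf1. The hybridization controls as a covariate gave -0.028 for the brighter Dgat2 probe set, -0.048 for the brighter one of Gpd1, -0.020 for Cebpb and -0.042 for Cebpa. The 3-prime to 5-prime covariate gave 0.19 for Pck1, -0.056 for the dimmer Dgat2 probe set and -0.077 for Cebpb. Averaging probe sets gave -0.010 for Mdh1, and animal number as a covariate 0.027 for Srebf1. The cause of these turns was not tested.

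Leaving out single animals moved the difference of Gpam between -0.016 and 0.219, Agpat2 between -0.064 and 0.088, the brighter and dimmer Dgat2 probe sets between -0.024 and 0.049 and between -0.047 and 0.112, and the brighter one of Gpd1 between -0.032 and 0.123. Pck1 ran from -0.155 to 0.048, Mdh1 from -0.0096 to 0.090, Pparg from -0.220 to 0.064, Cebpb from -0.033 to 0.085, Cebpa from -0.076 to 0.111 and Srebf1 from -0.096 to 0.054.

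The pairs of genes that passed numbered 0 to 1, 0 without noodle rat 4 or control rat 14, and r of Dgat2 with Gpd1 ran from 0.858 to 0.956. The correlation of Lpin1 with Lpin2 ran from -0.165 to 0.531, and that of the 2 Lpin2 probe sets from -0.564 to 0.017. The alternatives for agreement of probe sets, for the 3-prime to 5-prime difference (0 of 7 genes passed in all of them) and for marker lists were chosen after seeing the data. Of 5 genes with 2 probe sets, 4 agreed past the threshold (3 to 4 without single animals), and 2 after quantile normalization or centring, where r for Lpin2 turned to 0.223 and 0.521. Correlations with marker lists that passed numbered 0 to 1: without noodle rat 1, Gpam with fibroblast markers, and without noodle rat 4, Pck1 with adipocyte markers.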
